A study of Homo sapiens with 70 samples.

Results

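Sorafenib and GW3965 given together were compared with the vehicle DMSO in Hep3B cells, an established human hepatocellular carcinoma line, across all genes that the authors listed. The members were the 20090 genes of the authors' deposited table for this comparison, each read on the 1 representative transcript that the authors marked among 32321 transcripts. The 18 libraries behind the comparison were part of 70 in the series, all of poly-A RNA from hepatoma lines. The series asked how agonism of the liver X receptors alters the response of hepatocellular carcinoma to sorafenib. Of the 2 groups compared, 9 libraries were labelled as the combination (2 µM sorafenib with 5 µM GW3965) and 9 as DMSO, all collected 24 h after the drugs or the vehicle were added. The same 9 DMSO libraries also served the authors' comparisons of Hep3B with 2 µM sorafenib alone (9 libraries) and with 5 µM GW3965 alone (9 libraries), so values from those tables share their controls with this one. Huh7, another established hepatocellular carcinoma line, had 9 libraries with both drugs at the same doses and 8 with DMSO. Whether libraries with the same label stem from separate cultures is not stated, so the authors' p-values may rest on technical spread alone. The comparison covers a single line, dose pair and time.

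Sorafenib blocks RAF kinases and several receptor tyrosine kinases, among them the receptors for VEGF and PDGF, and is used against advanced liver cancer. GW3965 activates LXR, the liver X receptors, which sense oxidised sterols as nuclear receptors and switch on genes of cholesterol efflux and of fatty acid synthesis. The integrated stress response is a pathway in which kinases that sense amino acid shortage, a disturbed endoplasmic reticulum (ER) or other stress phosphorylate the initiation factor eIF2, which slows most translation and lets the transcription factor ATF4 accumulate. The unfolded protein response of the ER overlaps with it and adds chaperones and degradation factors.

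The values were group summaries: a mean log2 CPM (counts scaled to a common library total) over the libraries of both groups, a log2 fold change of both drugs over DMSO, an edgeR p-value and its false discovery rate (FDR) over all transcripts. Levels of each group in CPM were computed from the mean and the fold change of the authors' deposited table, and no value of a single library, spread or depth per library was at hand. CPM values are not divided by transcript length, so they compare a gene with itself and not with other genes. The lowest mean in the authors' deposited table was 0.197 CPM, which marks where unexpressed genes lie, and a fold change that starts near this floor depends on how the authors treated low counts. Calls were taken where the authors' FDR lay under 0.05, and lists of genes were counted over members whose mean reached 2 CPM. The CPM of a transcript shares its reads with other transcripts of the same gene in an unstated way.

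The genes that each drug is best known for were read first, as a check of the labels. ABCG1 (NM_016818), the sterol exporter that LXR agonists induce, stood at 52.9 CPM with both drugs and 0.602 CPM in DMSO. DUSP6 (NM_001946), a phosphatase induced by ERK, stood at 9.62 CPM with both drugs and 56.2 CPM in DMSO. All 10 hepatoma markers were at 2 CPM or more, against 0 of 6 endothelial and 0 of 3 erythroid markers, and the T cell gene CD3E and the common leukocyte gene PTPRC lay at or near the floor in both groups. Markers of other cell types were present in part: 3 of 9 immune markers reached 2 CPM, with a summed level over the list of 24.4 CPM with both drugs and 59.3 CPM in DMSO, and so did 4 of 8 fibroblast and stellate markers. Of 6 cholangiocyte markers 5 reached 2 CPM, with a summed level of 557 CPM with both drugs and 701 CPM in DMSO, 1 of them higher and 3 lower. The part of these markers in the results was not tested.

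Of the 11648 genes with a mean of 2 CPM or higher, 4277 rose with both drugs (36.7% of those tested) and 4122 fell (35.4%), so that 8399 (72.1%) were called in the authors' deposited table (edgeR, authors' FDR under 0.05). Over all 20090 genes, 9962 were called (49.6%). The number at 2 CPM or more that changed by 2-fold or more was 1670 (14.3%), 929 of them higher and 741 lower. A 4-fold or larger change was found for 180 genes that rose and 71 that fell, and one of 8-fold or more for 49 that rose and 14 that fell. Many calls were small, and 3465 called genes had an absolute log2 fold change under 0.5 in the authors' deposited table, the smallest being 0.14. The median log2 fold change of the genes at 2 CPM or more was 0.01. Counts of gene lists were read against the 36.7% of all genes that rose and the 35.4% that fell. In 10 of the 66 lists both shares lay within 10 percentage points of these, among them fatty acid oxidation, ribosome biogenesis, the BCL2 family, liver transcription factors, drug efflux transporters, urea and amino acid enzymes, gluconeogenesis and the insulin-like growth factor list, and the counts of such lists are no result about the list. Split into 5 equal bins of mean level, the genes had medians between 0.16 in the lowest bin and -0.10 in the highest, and the called share lay between 69.2% and 74.2%. Transcript length had almost no relation to the fold change (Spearman rho 0.02 across 11207 genes, which are not independent replicates) and GC content a weak one (rho -0.10). Of 573 genes listed on noncoding transcripts, 205 rose and 178 fell, near the shares of all genes, with a median log2 fold change of 0.03. Log2 fold changes of the 11648 genes had a Pearson r of 0.67 and a Spearman rho of 0.63 with those of Huh7 given both drugs, a comparison with its own DMSO libraries, where genes are again not independent replicates.

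**Figure D1:**
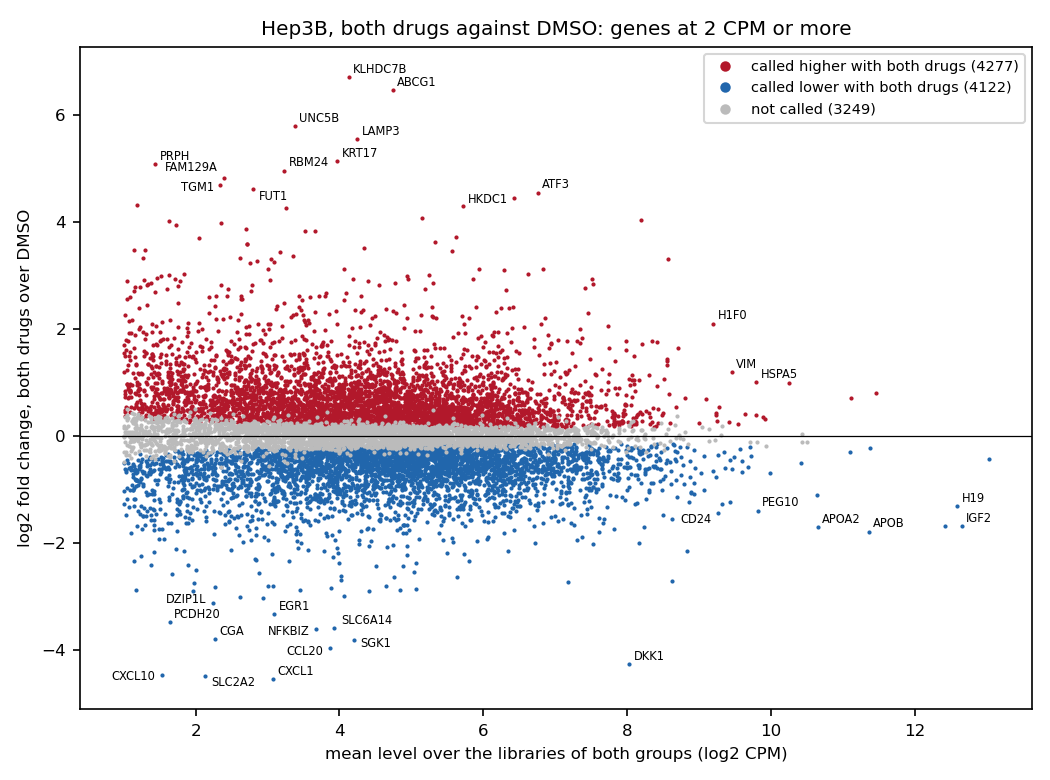
Log2 fold change of both drugs over DMSO (y axis) against the mean level over both groups in log2 CPM (x axis) for the 11648 Hep3B genes at 2 CPM or more. Each point is a gene, red where called higher (4277), blue where called lower (4122) and grey where not called, and ABCG1 at 6.46 and CXCL1 at -4.54 lie near the ends of the scale.

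Most of the genes with the highest fold changes lay close to the floor in DMSO. KLHDC7B (NM_138433), a kelch-domain gene, had the highest fold change and stood at 34.7 CPM with both drugs and 0.334 CPM in DMSO. UNC5B, a netrin receptor, stood at 20.5 CPM with both drugs and 0.371 CPM in DMSO, and LAMP3, a lysosomal membrane protein, at 37.2 CPM with both drugs and 0.795 CPM in DMSO. Several of the next genes are abundant in other tissues. KRT17, a keratin of stratified epithelia, stood at 30.5 CPM with both drugs and 0.868 CPM in DMSO and TGM1, the transglutaminase of keratinocytes, at 9.75 CPM with both drugs and 0.377 CPM in DMSO. PRPH, the neuronal filament protein peripherin, had a log2 fold change of 5.08 and RBM24, a splicing regulator of muscle, one of 4.96 in the authors' deposited table. NEBL, an actin-binding protein of heart muscle, and MAP1B, a microtubule-associated protein of neurons, had log2 fold changes of 4.30 and 4.25 in the authors' deposited table. FUT1, which makes the H blood group antigen, stood at 13.3 CPM with both drugs and 0.547 CPM in DMSO, and FAM129A, a stress-induced gene, at 10.2 CPM with both drugs and 0.359 CPM in DMSO. HKDC1, a hexokinase, was well above the floor in both groups, at 165 CPM with both drugs and 7.61 CPM in DMSO. Most of these genes were already high with sorafenib alone: the authors' deposited tables gave 5.23 for KLHDC7B, 4.72 for PRPH and 3.78 for HKDC1, against 0.43, -0.24 and 0.19 with GW3965 alone. RBM24 was an exception in size, with 4.96 for both drugs beside 1.65 for sorafenib and 0.64 for GW3965 in the authors' deposited tables.

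The genes that fell most were of several kinds. DKK1, a secreted inhibitor of Wnt signalling, stood at 26 CPM with both drugs and 497 CPM in DMSO. SGK1, a serum- and glucocorticoid-induced kinase, stood at 2.43 CPM with both drugs and 34.3 CPM in DMSO, a log2 fold change of -3.82 in the authors' deposited table (edgeR FDR = 4.55e-58). With sorafenib alone SGK1 was at -0.88, with GW3965 alone at -0.46 and in Huh7 with both drugs at -0.56 in the authors' deposited tables. SLC2A2, the glucose transporter GLUT2 of hepatocytes, ended near the floor, at 0.373 CPM with both drugs and 8.34 CPM in DMSO. CGA, the shared subunit of the glycoprotein hormones, had -3.79 with both drugs and -3.55 with sorafenib alone in the authors' deposited tables. PCDH20, a protocadherin, stood at 0.514 CPM with both drugs and 5.74 CPM in DMSO, and CPB2, a plasma carboxypeptidase that restrains fibrinolysis, at 1.35 CPM with both drugs and 10.9 CPM in DMSO. The metalloprotease gene ADAMTS9 fell to 3.74 CPM with both drugs, against 29.7 CPM in DMSO, CNIH2, an accessory subunit gene of glutamate receptors, to 1.67 CPM with both drugs, against 13.7 CPM in DMSO, and the ciliary gene DZIP1L to 0.968 CPM with both drugs, against 8.45 CPM in DMSO.

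Genes at a mean of 500 CPM or more were ranked apart, and the 8 highest and 8 lowest calls among them were read. H1F0, the replication-independent linker histone H1.0, stood at 952 CPM with both drugs and 222 CPM in DMSO, and VIM, the filament protein vimentin, at 973 CPM with both drugs and 428 CPM in DMSO. EEF2, the translation elongation factor, rose by 0.80 and ACTG1, cytoplasmic actin, by 0.71 in log2 units in the authors' deposited table. PTP4A1, a phosphatase, rose by 0.54 in the authors' deposited table. IGF2, the fetal insulin-like growth factor, fell to 3069 CPM with both drugs, against 9844 CPM in DMSO, and its value cannot be separated from that of the overlapping readthrough gene INS-IGF2. H19, the imprinted noncoding RNA next to IGF2, stood at 3537 CPM with both drugs and 8800.5 CPM in DMSO, and MIR675, whose precursor lies within H19, is counted from the same region. PEG10, an imprinted retrotransposon-derived gene, stood at 499 CPM with both drugs and 1312 CPM in DMSO and CD24, a surface glycoprotein gene, at 332 CPM with both drugs and 901 CPM in DMSO.

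**Figure D2:**
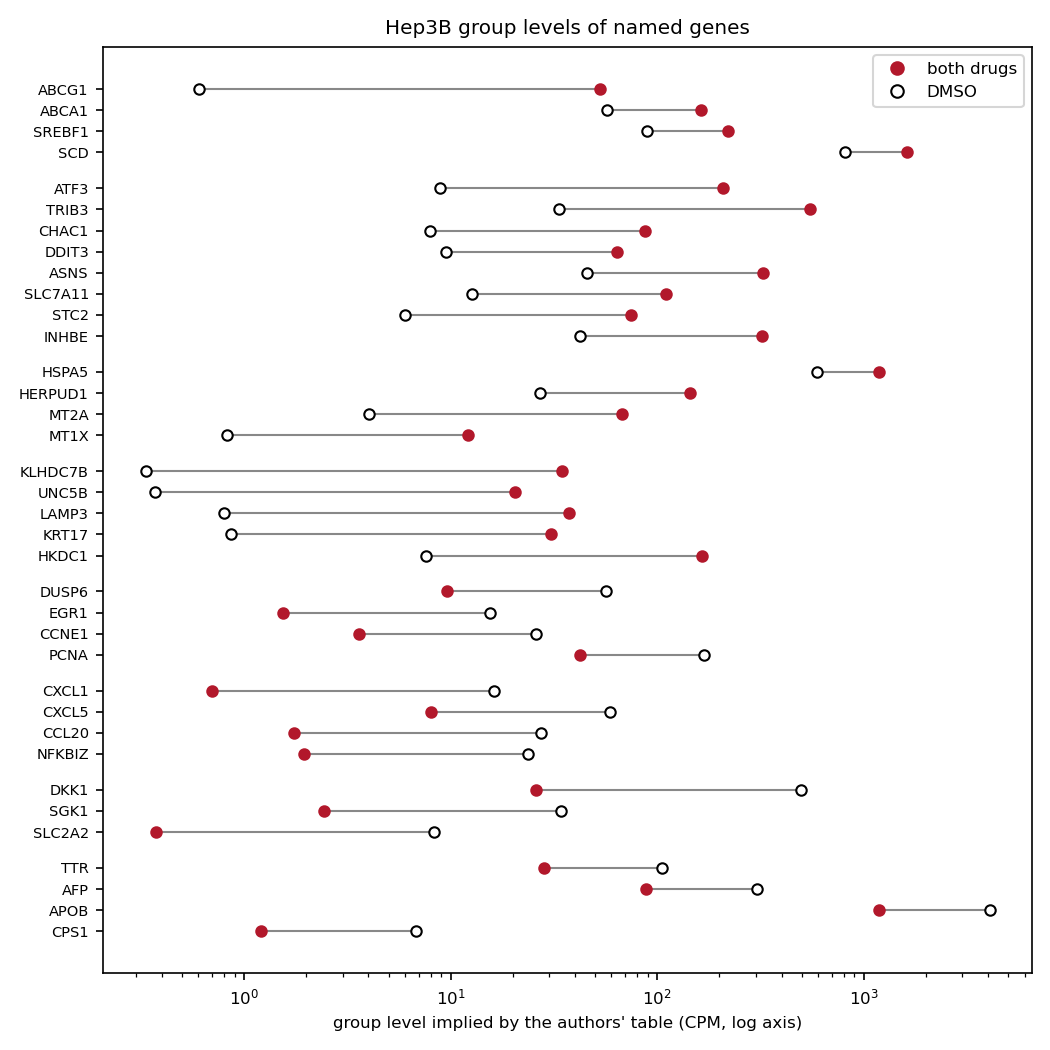
Group levels in CPM on a log axis for 36 named Hep3B genes, with both drugs as filled red points and DMSO as open points. A line joins the levels of a gene, which for ABCG1 are 52.9 CPM with both drugs and 0.602 CPM in DMSO and for DKK1 26 CPM with both drugs and 497 CPM in DMSO, and no error bars are drawn because no values of single libraries were at hand.

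LXR target genes rose in part. Of 14 such genes at 2 CPM or more, 9 rose, 3 fell and 2 were not called, with a median log2 fold change of 0.49. ABCA1, which loads cholesterol onto apolipoproteins, stood at 163 CPM with both drugs and 56.9 CPM in DMSO, SREBF1, the lipogenic transcription factor, at 219.9 CPM with both drugs and 89.2 CPM in DMSO, and MYLIP, a ubiquitin ligase, at 8.74 CPM with both drugs and 3.67 CPM in DMSO. TMEM135, a peroxisomal gene, rose by 1.15 in the authors' deposited table. The receptors themselves rose by less, NR1H3 (LXR alpha) by 0.49 and NR1H2 (LXR beta) by 0.26 in the authors' deposited table. PNPLA3, a lipid droplet lipase, fell by 1.03, and PLTP, the phospholipid transfer protein, by 0.47 in log2 units in the authors' deposited table. The median of the same 14 genes was 0.86 with GW3965 alone and -0.06 with sorafenib alone. In the order both, GW3965 and sorafenib, SREBF1 had 1.30, 1.96 and -0.88 and MYLIP 1.25, 1.87 and -0.57 in the authors' deposited tables. For these 2 genes the value with both drugs lay between those of the single drugs. For ABCG1 it lay above them, with 6.46, 5.99 and 0.59 in the same order in the authors' deposited tables.

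Fatty acid synthesis genes rose more often than they fell, and cholesterol synthesis genes fell more often than they rose. In the first list 9 of 17 rose and 4 fell, with a median of 0.28. GPAM, the first acyltransferase of glycerolipid synthesis, stood at 75.1 CPM with both drugs and 20.8 CPM in DMSO, ME1, which supplies NADPH, at 61 CPM with both drugs and 18.6 CPM in DMSO, and ACACA, the acetyl-CoA carboxylase, at 198 CPM with both drugs and 88.3 CPM in DMSO. SCD, the stearoyl-CoA desaturase, stood at 1619 CPM with both drugs and 812 CPM in DMSO. FASN, the fatty acid synthase, had 0.39 with an edgeR FDR of 0.0485 in the authors' deposited table, and this call was lost at an FDR of 0.01. ELOVL2, an elongase of long polyunsaturated fatty acids, fell by 0.80 and ACLY, which makes cytosolic acetyl-CoA, by 0.50 in log2 units in the authors' deposited table. Of 20 cholesterol synthesis genes, 5 rose and 11 fell, with a median of -0.26, beside 0.56 with GW3965 alone and -0.90 with sorafenib alone. LSS, the lanosterol synthase, stood at 42 CPM with both drugs and 105 CPM in DMSO and TM7SF2, a sterol reductase, at 48.2 CPM with both drugs and 123 CPM in DMSO. FDPS and ACAT2 fell by 0.52 and 0.53 in log2 units, while CYP51A1 rose by 0.45 and HSD17B7 by 0.49 in the authors' deposited table. INSIG1, which holds the sterol sensor in the ER, rose by 0.36 in the authors' deposited table.

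Sterol sensing and uptake genes had 6 of 15 higher (40.0%, close to the 36.7% of all genes) and 3 lower. NPC1, which exports cholesterol from lysosomes, stood at 93.4 CPM with both drugs and 35 CPM in DMSO. SCAP and SREBF2 rose by 0.61 and 0.58 in log2 units in the authors' deposited table. MBTPS1, a protease that cuts the product of SREBF2, fell by 0.92 and the HDL receptor SCARB1 by 0.84 in log2 units in the authors' deposited table. Of 17 genes of triglycerides and lipid droplets, 4 rose and 6 fell. LPIN1, a phosphatidate phosphatase, stood at 13.1 CPM with both drugs and 3.89 CPM in DMSO and its relative LPIN3 at 2.06 CPM with both drugs and 4.84 CPM in DMSO. The final acyltransferases parted, with DGAT2 at 1.17 and DGAT1 at -0.63 in the authors' deposited table. Of 22 fatty acid oxidation genes, 9 rose (40.9%) and 6 fell (27.3%), near the shares of all genes. CPT1A, which commits fatty acids to mitochondria, stood at 86.8 CPM with both drugs and 32.4 CPM in DMSO, and its regulators PPARGC1A and PPARA had 1.29 and 1.19 in the authors' deposited table. PDK4, a brake on glucose oxidation, stood at 5.44 CPM with both drugs and 2.90 CPM in DMSO. FABP1, the fatty acid binding protein of liver, stood at 7.50 CPM with both drugs and 46.5 CPM in DMSO, although GW3965 alone gave 1.01 and sorafenib alone -1.56 in the authors' deposited tables.

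Integrated stress response genes rose together and by large amounts. All 16 stress transcription factors and regulators tested rose, with a median log2 fold change of 2.35 and a summed level of 2298 CPM with both drugs and 477 CPM in DMSO. ATF3 (NM_001040619), a transcription factor induced by ATF4, stood at 207 CPM with both drugs and 8.88 CPM in DMSO. TRIB3, a pseudokinase that feeds back on the pathway, stood at 551 CPM with both drugs and 33.5 CPM in DMSO, and CHAC1, which breaks down glutathione, at 86.9 CPM with both drugs and 7.91 CPM in DMSO. DDIT3, the factor CHOP, stood at 63.7 CPM with both drugs and 9.47 CPM in DMSO, and CEBPB at 141 CPM with both drugs and 16.4 CPM in DMSO. ATF4 itself, which is controlled mostly at translation, rose by 1.25 in the authors' deposited table. Medians of the list were 2.07 with sorafenib alone, 0.31 with GW3965 alone and 2.33 in Huh7 with both drugs, beside the 2.35 here.

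The factors that the stress response secretes were also higher. All 9 tested members of this list rose, with a median of 1.94, and 5 of the 6 members under 2 CPM rose too. STC2, a glycoprotein hormone, stood at 74.6 CPM with both drugs and 6.02 CPM in DMSO, INHBE, an activin subunit made by liver, at 323 CPM with both drugs and 42.1 CPM in DMSO, and ADM2, a peptide of the calcitonin family, at 54.9 CPM with both drugs and 7.20 CPM in DMSO. EREG, an EGF receptor ligand, stood at 65.9 CPM with both drugs and 12.3 CPM in DMSO and VEGFA at 116 CPM with both drugs and 30.4 CPM in DMSO. GDF15, a stress cytokine that reduces appetite, stood at 97 CPM with both drugs and 30.8 CPM in DMSO. FGF21, a hormone of fasting liver, stayed below the 2 CPM minimum, at 1.96 CPM with both drugs and 0.114 CPM in DMSO, with a log2 fold change of 4.11 in the authors' deposited table (edgeR FDR = 1.91e-38).

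Stretches of promoter with the core letters that ATF4 pairs with C/EBP proteins are shown here for 3 of these genes and for ASNS, the asparagine synthetase and a known ATF4 target, from RefSeq windows of 250 bases before to 50 after the start on GRCh38.p14. The letters searched were TGATGNAA on both strands, in capitals below, with 10 bases on either side, 5′ to 3′ on the strand of the gene.
ATF3 (chr1:212565206-212565233, plus strand): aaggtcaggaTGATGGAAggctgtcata
CHAC1 (chr15:40953252-40953279, plus strand): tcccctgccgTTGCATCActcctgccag
FGF21 (chr19:48755460-48755487, plus strand): aacaccaggaTTGCATCAgggaggagga
ASNS (chr7:97872459-97872486, minus strand): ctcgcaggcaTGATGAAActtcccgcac
Such letters were in 3.67% of all 27305 promoter windows, in 3 of 14 windows of the stress regulators, in 4 of 18 of the amino acid transporters and in 1 of 10 of the secreted factors. A match is a description of the sequence and not of binding.

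Enzymes that make serine, asparagine and proline rose, while others in the same lists fell. ASNS stood at 323 CPM with both drugs and 45.5 CPM in DMSO and PHGDH, the first enzyme of serine synthesis, at 183 CPM with both drugs and 58.1 CPM in DMSO. MTHFD2, SHMT2, MTHFD1L and ALDH1L2, which run the one-carbon cycle of mitochondria, had 2.77, 1.71, 1.83 and 4.31 in the authors' deposited table. The value of ALDH1L2 starts near the floor, at 4.32 CPM with both drugs and 0.219 CPM in DMSO. PYCR1 of proline synthesis stood at 120.0 CPM with both drugs and 24.2 CPM in DMSO, CTH, which makes cysteine, at 10.7 CPM with both drugs and 2.60 CPM in DMSO, and the alanine transaminase GPT2 at 106 CPM with both drugs and 35.5 CPM in DMSO. TYMS, which uses one-carbon units for thymidylate, stood at -1.57, and MAT2A, which makes S-adenosylmethionine, at -1.75 in the authors' deposited table. Counted whole, the serine, glycine and one-carbon list had 7 of 15 higher and 7 lower, and the list of asparagine, proline and sulfur amino acids 7 of 12 higher and 4 lower.

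Amino acid transporters rose in 12 of 19 cases and fell in 5, with a median of 1.10. SLC3A2, the shared heavy chain of several exchangers, stood at 688 CPM with both drugs and 69.2 CPM in DMSO, with its partners SLC7A11, the cystine importer, at 110.5 CPM with both drugs and 12.7 CPM in DMSO, and SLC7A5, the leucine importer, at 292 CPM with both drugs and 59.4 CPM in DMSO. SLC6A9, a glycine transporter, stood at 15.3 CPM with both drugs and 1.62 CPM in DMSO. SLC6A14, a broad neutral and cationic amino acid transporter, went the other way, at 2.33 CPM with both drugs and 28.2 CPM in DMSO, and SLC1A3, a glutamate transporter, had -1.53 in the authors' deposited table.

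Cytosolic and mitochondrial tRNA synthetases parted. Of 19 cytosolic synthetase genes 16 rose and 1 fell, with a median of 0.68. SARS stood at 258 CPM with both drugs and 72.5 CPM in DMSO, GARS at 526 CPM with both drugs and 157 CPM in DMSO and AARS at 406 CPM with both drugs and 144 CPM in DMSO, and CARS and WARS had 1.60 and 1.59 in the authors' deposited table. HARS was the one that fell, by 0.50 in log2 units in the authors' deposited table. Of 17 genes for mitochondrial synthetases 4 rose and 7 fell, with a median of -0.08; LARS2, CARS2 and AARS2 stood at -0.78, -0.71 and -0.62, and WARS2 and PARS2 at 0.84 and 0.82 in the authors' deposited table. Of 24 eIF2 kinases and initiation factors, 16 rose and 5 fell. EIF1, which guards start codon choice, stood at 633 CPM with both drugs and 203 CPM in DMSO, EIF4EBP1, a repressor of cap-dependent translation, at 158 CPM with both drugs and 50.2 CPM in DMSO and EIF2AK3, the ER stress kinase PERK, at 53.2 CPM with both drugs and 20.5 CPM in DMSO. EIF2S2, a subunit of eIF2, rose by 1.00 in the authors' deposited table. The cap-binding subunit EIF4E and its scaffold EIF4G1 stood at -0.73 and -0.89 in the authors' deposited table.

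ER chaperones and unfolded protein response genes rose with both drugs, and the list median was lower with each drug alone. Of 26 genes, 18 rose and 1 fell, with a median of 0.61, beside 0.03 with sorafenib alone, 0.10 with GW3965 alone and 0.04 in Huh7 with both drugs. HSPA5 (NM_005347), the main ER chaperone BiP, stood at 1187 CPM with both drugs and 593 CPM in DMSO (edgeR FDR = 3.31e-24 in the authors' deposited table). Its log2 fold changes were 1.00 with both drugs, -0.03 with sorafenib, 0.03 with GW3965 and -0.22 in Huh7 with both drugs in the authors' deposited tables. HERPUD1, which takes part in ER-associated degradation, stood at 143 CPM with both drugs and 27 CPM in DMSO, and DNAJB9, a co-chaperone of BiP, at 55.3 CPM with both drugs and 14.2 CPM in DMSO. The sensors were higher as well, ERN1 (IRE1) at 31.2 CPM with both drugs and 6.09 CPM in DMSO and ATF6 at 90.1 CPM with both drugs and 35.3 CPM in DMSO, with the factor XBP1 at 540.2 CPM with both drugs and 215 CPM in DMSO. Unlike HSPA5, these genes were also called higher with sorafenib alone, HERPUD1 at 1.22, ERN1 at 1.12, DNAJB9 at 0.86, ATF6 at 0.72 and XBP1 at 0.55 in the authors' deposited tables. In Huh7 with both drugs HERPUD1, ERN1 and ATF6 were at 1.03, 1.60 and 0.88, and XBP1 was at 0.06 and not called, in the authors' deposited tables. CANX, the lectin chaperone calnexin, rose by 0.69 in the authors' deposited table. ERO1L, an ER oxidase, fell by 0.46, and CALR, HSP90B1 and PDIA4 were at -0.12, 0.18 and -0.02, not called, in the authors' deposited table.

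The promoter element through which ATF6 acts on ER chaperones was looked up in the same RefSeq windows as CCAAT and CCACG with 9 bases of any kind between them, on both strands, in capitals here with 10 bases on either side. The stretches show 2 genes that rose and 3 that were not called.
HSPA5 (chr9:125241381-125241419, minus strand): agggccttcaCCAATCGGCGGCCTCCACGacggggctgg
XBP1 (chr22:28800593-28800631, minus strand): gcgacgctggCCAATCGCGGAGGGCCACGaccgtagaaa
CALR (chr19:12938374-12938412, plus strand): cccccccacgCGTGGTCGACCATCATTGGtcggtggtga
CRELD2 (chr22:49918544-49918582, plus strand): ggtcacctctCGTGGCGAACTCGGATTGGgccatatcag
HSP90B1 (chr12:103930311-103930349, plus strand): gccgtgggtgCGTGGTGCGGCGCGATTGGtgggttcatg
The element was in 0.0806% of all 27305 windows and in 7 of 24 windows of this list. Of these 7, HSPA5, XBP1, CANX and ERO1B (listed as ERO1LB) rose, and CALR, CRELD2 and HSP90B1 were at -0.12, 0.11 and 0.18 in the authors' deposited table, so genes with the element were on both sides of the threshold.

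Genes of the cytosolic heat shock list, which also holds the mitochondrial gene HSPE1, fell more often than they rose. Of 17, 10 fell and 4 rose, with a median of -0.47. HSPA1A and HSPA1B, near-identical copies of the inducible HSP70 that may share reads, stood at -1.95 and -1.84 in the authors' deposited table. DNAJA1, an HSP40 co-chaperone, stood at 103 CPM with both drugs and 258 CPM in DMSO and HSPE1, the mitochondrial co-chaperonin, at 29.9 CPM with both drugs and 74.4 CPM in DMSO. HSPB8, a small heat shock protein active in selective autophagy, rose to 16.5 CPM with both drugs, against 3.54 CPM in DMSO, and DNAJB4 rose by 0.97 in the authors' deposited table.

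**Figure D3:**
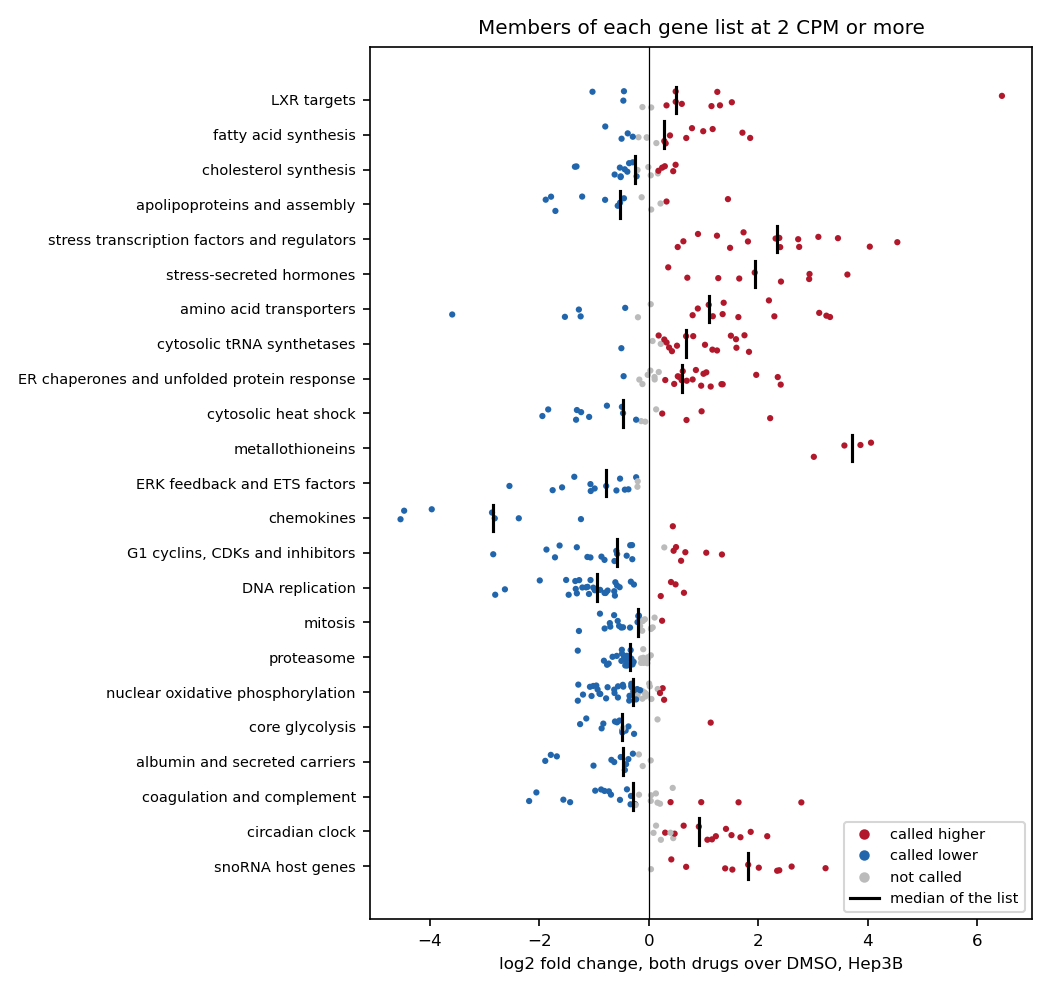
Log2 fold change of both drugs over DMSO (x axis) for the members at 2 CPM or more of 23 gene lists (rows), where each point is a gene coloured by its call and the black bar is the list's median. The stress regulators, secreted factors and metallothioneins lie right of 0, and chemokines, ERK feedback genes and DNA replication genes mostly left of it.

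Metallothioneins, small proteins that bind zinc and copper, rose with both drugs and were low in DMSO. MT2A (NM_005953) stood at 67.1 CPM with both drugs and 4.02 CPM in DMSO and MT1X at 12.1 CPM with both drugs and 0.831 CPM in DMSO. MT1E stood at 12.1 CPM with both drugs and 1.01 CPM in DMSO and MT1G at 6.37 CPM with both drugs and 0.787 CPM in DMSO. All 4 members at 2 CPM or more rose, with a median log2 fold change of 3.72, and 3 of the 7 members under 2 CPM rose. The single drugs gave less: MT2A was at 0.87 with sorafenib and 0.32 with GW3965 (not called), and in Huh7 with both drugs at 0.23 in the authors' deposited tables. MT1X was at 0.81, 0.23 and 0.46 in the same order in the authors' deposited tables. MT2A had an edgeR FDR of 3.41e-17 at its log2 fold change of 4.06, while the keratin gene KRT80 had 5.89e-38 at 3.84 in the authors' deposited table. Whether single libraries differed more in the metallothioneins was not tested. Reads of the MT1 genes can match more than 1 of these close copies. SLC30A1, the zinc exporter that responds to the same metal-sensing factor, stood at 40.8 CPM with both drugs and 17.9 CPM in DMSO. The zinc importers parted, SLC39A14 at 0.39 and SLC39A8 at -0.52 in the authors' deposited table.

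The promoters of the 2 metallothionein genes with the highest fold changes are printed whole, 250 bases before to 50 after the start in RefSeq on GRCh38.p14, because the element for the metal-sensing factor MTF1 recurs in them. The letters searched were TGCACNC and TGCGCNC on both strands, in capitals.
MT2A (chr16:56608334-56608633, plus strand): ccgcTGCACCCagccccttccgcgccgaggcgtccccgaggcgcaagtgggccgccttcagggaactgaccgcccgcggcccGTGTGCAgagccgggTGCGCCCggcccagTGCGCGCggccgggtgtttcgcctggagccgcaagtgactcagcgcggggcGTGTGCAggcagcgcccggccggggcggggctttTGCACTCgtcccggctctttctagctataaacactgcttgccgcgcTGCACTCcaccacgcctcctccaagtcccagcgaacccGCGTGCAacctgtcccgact
MT1X (chr16:56682220-56682519, plus strand): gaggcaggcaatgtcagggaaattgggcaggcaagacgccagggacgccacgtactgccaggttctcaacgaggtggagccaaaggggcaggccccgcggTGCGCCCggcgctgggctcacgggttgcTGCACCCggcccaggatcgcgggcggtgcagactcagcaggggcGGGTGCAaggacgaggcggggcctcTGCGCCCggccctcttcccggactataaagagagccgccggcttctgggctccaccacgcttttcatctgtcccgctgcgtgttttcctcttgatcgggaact
The MT2A window held 8 matches and the MT1X window 4. Windows with at least 1 match made up 29.3% of all 27305, 5 of 5 metallothionein windows and 2 of 6 windows of zinc transporters and metal regulators, SLC30A1 among them. The metallothionein windows with a match included those of MT1B and MT4, which lay under 2 CPM and were not called, at 0.92 and 0.28 in the authors' deposited table. No window was at hand for MT1E and MT1G.

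Genes beside the metallothionein cluster on chromosome 16 moved less, and were chosen after the values of the cluster were seen. OGFOD1, on one side, stood at 50.4 CPM with both drugs and 32.2 CPM in DMSO (log2 fold change 0.65 in the authors' deposited table), and BBS2 at 13.9 CPM with both drugs and 12.2 CPM in DMSO. NUP93, on the other side, was at -0.02 in the authors' deposited table and not called.

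**Figure D4:**
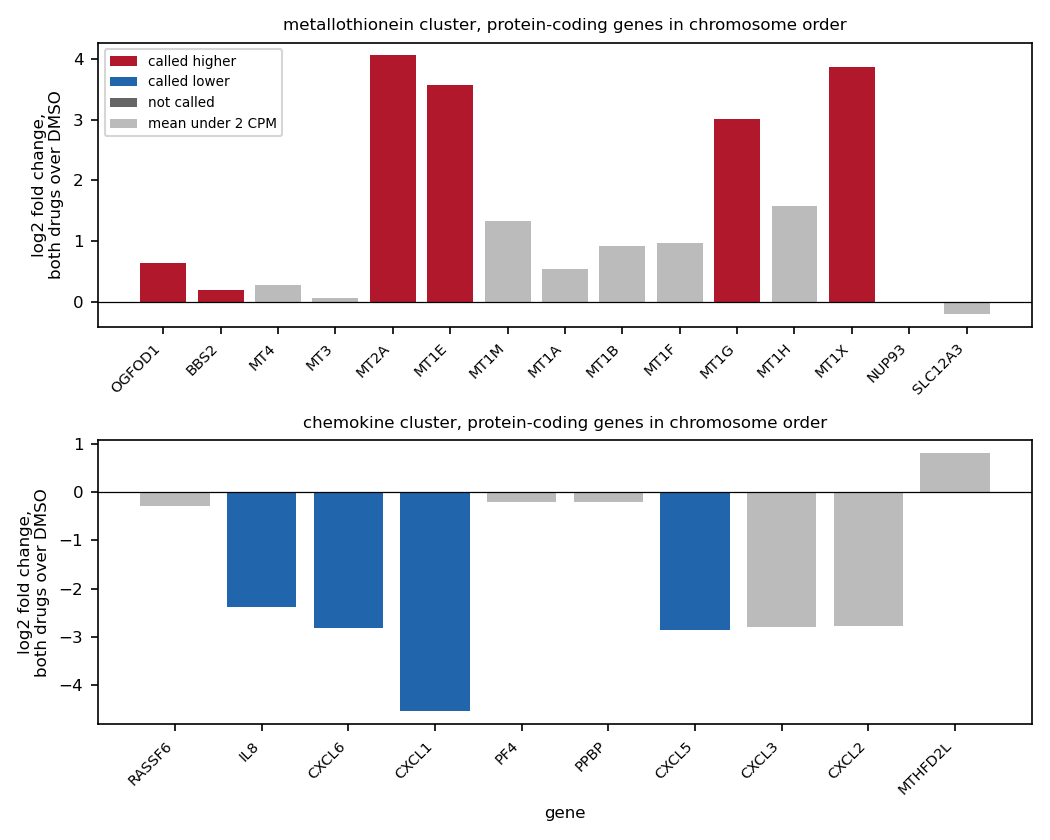
Log2 fold change of both drugs over DMSO (y axis) for protein-coding genes in chromosome order through the metallothionein cluster (top) and the CXC chemokine cluster (bottom), with bars coloured by call and pale grey bars for genes with a mean under 2 CPM. MT2A reaches 4.06 and CXCL1 -4.54, while the flanking NUP93 lies at -0.02.

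Oxidative stress and iron genes moved in both directions. Of 16 NRF2 targets 8 rose and 2 fell. SRXN1, which repairs peroxiredoxins, stood at 84.9 CPM with both drugs and 22.3 CPM in DMSO, and the glutathione synthesis genes GCLM and GCLC at 41.2 CPM with both drugs and 11.8 CPM in DMSO and at 85 CPM with both drugs and 34.7 CPM in DMSO. TXNRD1, thioredoxin reductase, stood at 297 CPM with both drugs and 133 CPM in DMSO and OSGIN1 at 17.4 CPM with both drugs and 4.78 CPM in DMSO. NQO1, the quinone reductase often read as the marker of NRF2, fell by 0.45 and TALDO1 of the pentose phosphate pathway by 0.45 in log2 units in the authors' deposited table. Of 15 iron and ferroptosis genes 4 rose and 8 fell. ACSL4, which loads membranes with the polyunsaturated fatty acids that ferroptosis oxidises, stood at 115 CPM with both drugs and 458 CPM in DMSO, and the ferroxidase CP at 17.3 CPM with both drugs and 49.1 CPM in DMSO. The transferrin receptor TFRC rose by 0.55 and TFR2 by 1.32, while transferrin itself (TF) and ACO1 stood at -0.68 and -0.58 in the authors' deposited table.

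Transcripts that report ERK activity fell. Of 15 ERK feedback and ETS genes, 13 fell and 0 rose, with a median of -0.78, beside -1.21 with sorafenib alone and 0.33 with GW3965 alone. DUSP6 had -2.55 (edgeR FDR = 7.77e-91) in the authors' deposited table. IER3, an early response gene, stood at 12.7 CPM with both drugs and 42.8 CPM in DMSO, ETV1, an ETS factor, at 17.3 CPM with both drugs and 44.5 CPM in DMSO, and SPRY4, an inhibitor of receptor signalling, at 2.75 CPM with both drugs and 8.26 CPM in DMSO. CCND1, cyclin D1, stood at 43.4 CPM with both drugs and 90.8 CPM in DMSO, although in Huh7 with both drugs it was at -0.04, not called, in the authors' deposited tables.

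Immediate early genes split into those that fell and those that rose. Of 16, 9 rose and 5 fell. EGR1, a zinc finger factor driven by ERK, stood at 1.55 CPM with both drugs and 15.5 CPM in DMSO and NR4A2, an orphan nuclear receptor, at 1.26 CPM with both drugs and 3.33 CPM in DMSO. KLF4 stood at 4.39 CPM with both drugs and 0.437 CPM in DMSO, FOSL2, a FOS relative, at 16 CPM with both drugs and 2.84 CPM in DMSO and MYC at 261 CPM with both drugs and 96.4 CPM in DMSO. MYC was at 0.16 with sorafenib alone and 0.15 with GW3965 alone, both not called, and at 1.71 in Huh7 with both drugs in the authors' deposited tables. EGR1 was at -2.86 with sorafenib and 1.16 with GW3965 in the authors' deposited tables.

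Kinases that sorafenib inhibits, and other receptor kinases, mostly fell at the RNA level, with 11 of 17 lower and 4 higher. PDGFRA stood at 10.8 CPM with both drugs and 55.9 CPM in DMSO and PDGFRB at 2.09 CPM with both drugs and 9.13 CPM in DMSO. FGFR1 stood at 15.3 CPM with both drugs and 35.9 CPM in DMSO and ERBB3 at 94.9 CPM with both drugs and 182 CPM in DMSO. BRAF rose by 0.86 and INSR, the insulin receptor, by 0.92 in the authors' deposited table. PDGFRA and PDGFRB are also fibroblast and stellate cell markers: of 8 such markers 4 were at 2 CPM or more, their summed level was 22.0 CPM with both drugs and 75.6 CPM in DMSO, and ACTA2, DCN and COL3A1 were near the floor in both groups. In the insulin-like growth factor list, 5 of 11 rose (45.5%) and 3 fell (27.3%), near the shares of all genes. IRS2 was at 1.20 and IGFBP1 at 1.27, against IGFBP3 at -1.30 and IGF2 at -1.68 in the authors' deposited table.

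Chemokines fell more than any other list described here by its median. Of 8 at 2 CPM or more, 7 fell and 1 rose, with a median of -2.84. Over all 14 measured chemokines the summed level was 85.0 CPM with both drugs and 224 CPM in DMSO. CXCL16, the one that rose, gave 50.5 CPM of it with both drugs and 37.2 CPM in DMSO. CXCL1 (NM_001511), a neutrophil attractant, stood at 0.695 CPM with both drugs and 16.2 CPM in DMSO, and CXCL5 and CXCL6 of the same family at 8.07 CPM with both drugs and 58.9 CPM in DMSO and at 1.19 CPM with both drugs and 8.41 CPM in DMSO. CCL20, which draws cells with the receptor CCR6, stood at 1.75 CPM with both drugs and 27.3 CPM in DMSO. CXCL10, an interferon-induced attractant of T cells, ended near the floor, at 0.249 CPM with both drugs and 5.52 CPM in DMSO. CXCL2 and CXCL3 lay under the 2 CPM minimum and were named after their values were seen, with -2.77 and -2.79 in the authors' deposited table. IL8, named in the same way, stood at 5.15 CPM with both drugs and 26.8 CPM in DMSO. CXCL16 was the member that rose, by 0.44 in the authors' deposited table. Side by side, CXCL6 was at -2.82 with both drugs, -0.21 with sorafenib and -0.19 with GW3965, and IL8 at -2.38, 0.29 and 0.20, in the authors' deposited tables, whereas CXCL5 and CCL20 were already at -2.33 and -2.55 with sorafenib alone.

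Core letters of the NF-kB site, GGG and TTCC with 3 bases of any kind between them on either strand, were looked up in the promoter windows of these genes and are shown in capitals with 10 bases on either side, 5′ to 3′ on the strand of the gene in GRCh38.p14. In CXCL1, CXCL2, CXCL3, CXCL5 and CXCL6 the same letters match on both strands, so a pair of overlapping matches gives 11 capitals.
CXCL1 (chr4:73869304-73869334, plus strand): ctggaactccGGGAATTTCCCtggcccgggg
CXCL2 (chr4:74099253-74099283, minus strand): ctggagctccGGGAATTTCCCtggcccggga
CXCL3 (chr4:74038748-74038778, minus strand): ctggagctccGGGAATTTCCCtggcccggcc
CXCL5 (chr4:73998748-73998778, minus strand): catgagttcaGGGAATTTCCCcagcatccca
CXCL6 (chr4:73836578-73836608, plus strand): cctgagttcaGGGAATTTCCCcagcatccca
CXCL10 (chr4:76023655-76023684, minus strand): gaggagcagaGGGAAATTCCgtaacttgga
CCL20 (chr2:227813753-227813782, plus strand): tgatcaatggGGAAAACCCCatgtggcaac
NFKBIZ (chr3:101827757-101827786, plus strand): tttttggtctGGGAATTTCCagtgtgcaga
The letters were in 6.47% of all 27305 windows, in 8 of 11 chemokine windows and in 8 of 16 windows of NF-kB subunits and feedback genes. Of the NF-kB subunits and feedback genes at 2 CPM or more, 7 of 16 rose and 8 fell.

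NFKBIZ, the co-factor that NF-kB needs at a subset of its targets, stood at 1.95 CPM with both drugs and 23.7 CPM in DMSO, a log2 fold change of -3.60 in the authors' deposited table, beside -1.05 with sorafenib alone, -0.11 with GW3965 alone and -1.44 in Huh7 with both drugs. ICAM1, the leukocyte adhesion receptor, stood at 29.5 CPM with both drugs and 80.9 CPM in DMSO and TNFAIP2 at 12.6 CPM with both drugs and 35 CPM in DMSO. RELB, a subunit of the non-canonical pathway, stood at 40.1 CPM with both drugs and 23.2 CPM in DMSO and IL32, a cytokine gene, at 16.1 CPM with both drugs and 9.32 CPM in DMSO. Genes of IL6 and STAT3 signalling and the acute phase rose in 8 of 10 cases and fell in 1. SOCS2, a feedback inhibitor of cytokine receptors, stood at 15.1 CPM with both drugs and 1.53 CPM in DMSO, IL6R at 34.6 CPM with both drugs and 10.7 CPM in DMSO and the acute-phase gene ORM1 at 66.5 CPM with both drugs and 21.2 CPM in DMSO. SERPINA3, antichymotrypsin, had 1.40, and STAT3 -0.36 in the authors' deposited table; ORM1 and ORM2 are close copies whose reads may be shared. Of 12 interferon-stimulated genes 6 rose and 5 fell, with IRF1 at 27.5 CPM with both drugs and 7.52 CPM in DMSO and IRF7 at 9.08 CPM with both drugs and 3.62 CPM in DMSO, against IFI6 at -1.01 in the authors' deposited table. LYZ, lysozyme, was the 1 immune cell marker called, at 10.4 CPM with both drugs and 43 CPM in DMSO; CD14 and CD68 were at -0.21 and -0.25, not called, in the authors' deposited table, and their part in these results was not tested.

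**Figure D5:**
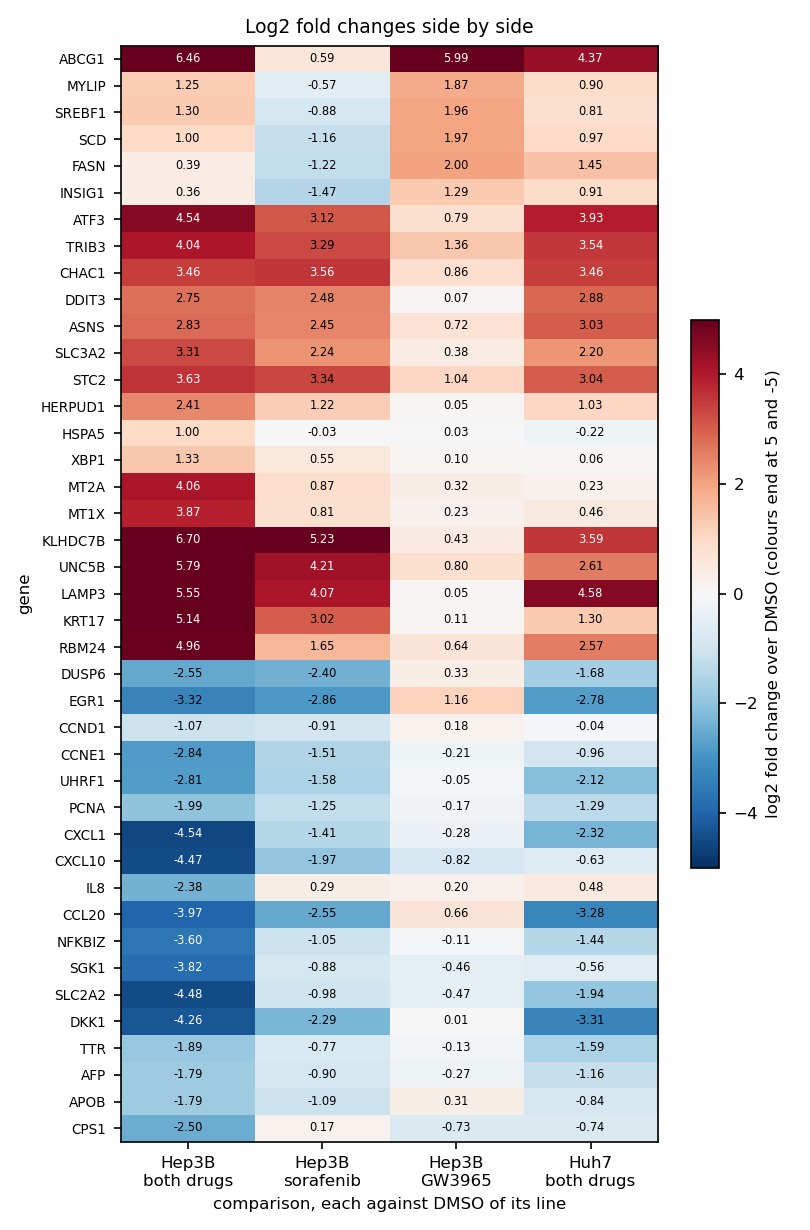
Log2 fold changes from the authors' deposited tables for 41 genes (rows) in Hep3B with both drugs, with sorafenib alone and with GW3965 alone, and in Huh7 with both drugs, each against the DMSO group of its line (columns); the 3 Hep3B columns share their DMSO libraries. HSPA5 reads 1.00, -0.03, 0.03 and -0.22 across the columns, and IL8 -2.38, 0.29, 0.20 and 0.48.

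DNA replication genes fell nearly throughout. Of 32, 28 fell and 4 rose, with a median of -0.94, and the summed level was 1336 CPM with both drugs and 2659.8 CPM in DMSO. PCNA, the sliding clamp of the polymerases, stood at 42.5 CPM with both drugs and 169 CPM in DMSO. RRM2, the regulated subunit of ribonucleotide reductase, stood at 13.8 CPM with both drugs and 85.7 CPM in DMSO and UHRF1, which maintains DNA methylation, at 6.28 CPM with both drugs and 44 CPM in DMSO. MCM2 of the helicase stood at 92.6 CPM with both drugs and 256 CPM in DMSO and FEN1, the flap nuclease, at 42.9 CPM with both drugs and 122 CPM in DMSO. Among the exceptions were RFC4, a clamp loader subunit, at 0.64, and CDT1, a licensing factor, at 0.49 in the authors' deposited table. E2F-type letters (TTTCCCGC, TTTGGCGC, TTTCGCGC or TTTGCCGC on either strand) were in 3.33% of all promoter windows and in 16 of 29 windows of this list, CDT1 included.

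G1 regulators followed the same direction. Of 23 G1 cyclins, kinases, E2F factors and inhibitors, 16 fell and 6 rose. CCNE1, cyclin E1, stood at 3.59 CPM with both drugs and 25.8 CPM in DMSO and CCNE2 at 6.10 CPM with both drugs and 22.3 CPM in DMSO. E2F8 and E2F2 stood at -1.72 and -1.63 in the authors' deposited table. The inhibitors CDKN1A (p21) and CDKN2B (p15) rose, to 3.23 and 32 CPM with both drugs against 1.28 and 15.5 CPM in DMSO. CDKN1A was at 0.09 with sorafenib alone and 1.10 with GW3965 alone in the authors' deposited tables.

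Mitosis genes had a median nearer to 0 than replication genes. Of 24, 14 fell, 1 rose and 9 were not called, with a median of -0.20, beside -0.50 with sorafenib alone. MKI67, the proliferation marker Ki-67, stood at 41.4 CPM with both drugs and 100.4 CPM in DMSO, and CENPE, a kinetochore motor, at 24.2 CPM with both drugs and 44.9 CPM in DMSO. NUSAP1 and KIF20A of the spindle and CENPF of the kinetochore stood at -0.81, -0.71 and -0.70 in the authors' deposited table. PLK1, AURKA, CDC20 and CCNA2 were at 0.11, -0.07, 0.07 and 0.04, none of them called, in the authors' deposited table. CENPA, the centromeric histone, rose by 0.24 with an edgeR FDR of 0.0471 in the authors' deposited table, and that call was lost at an FDR of 0.01. DNA repair genes divided, with 6 of 20 homologous recombination, Fanconi and mismatch repair genes higher and 10 lower: BRIP1 and RAD51AP1 stood at -1.18 and -1.03, and FANCE and BRCA2 at 0.83 and 0.59 in the authors' deposited table. Of 17 enzymes of purine and pyrimidine synthesis 4 rose and 6 fell, among them IMPDH2 at 0.74 and PRPS2 at -1.18 in the authors' deposited table.

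Wnt and YAP targets gave mixed lists. Of 14 Wnt genes 2 rose and 8 fell, with LGR5, a receptor and Wnt target of stem cells, at 5.96 CPM with both drugs and 25.4 CPM in DMSO. RNF43, which removes Wnt receptors, stood at -0.91 and TCF7 at -0.81, while NOTUM, an inhibitor of Wnt ligands, stood at 1.05 in the authors' deposited table. Of 15 YAP and TEAD targets 8 rose and 4 fell. JUB (ajuba) stood at 223 CPM with both drugs and 65.2 CPM in DMSO and AMOTL2 at 123 CPM with both drugs and 51.4 CPM in DMSO, against NT5E, the ecto-nucleotidase CD73, at 13.1 CPM with both drugs and 46 CPM in DMSO.

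Cell death genes moved in both directions. In the BCL2 family 3 of 11 rose (27.3%) and 4 fell (36.4%), near the shares of all genes. BBC3 (PUMA), a killer protein of the BH3 class, stood at 27.2 CPM with both drugs and 11.2 CPM in DMSO and BAK1, a pore former, at 22.8 CPM with both drugs and 15.2 CPM in DMSO. BAX, BID and the survival protein BCL2L1 stood at -0.57, -0.70 and -0.62 in the authors' deposited table. MCL1, a survival protein, was at -0.07 (edgeR FDR = 0.443) in the authors' deposited table, and so was not called. PMAIP1 (NOXA) lay below 2 CPM, at 0.560 CPM with both drugs and 0.245 CPM in DMSO. Of 17 death receptor and caspase genes 9 rose and 4 fell. TNFRSF10B, the TRAIL receptor DR5, stood at 103 CPM with both drugs and 38.8 CPM in DMSO, TNFRSF12A, the TWEAK receptor, at 68.6 CPM with both drugs and 32.6 CPM in DMSO, and BIRC2, an inhibitor of apoptosis, at 67.7 CPM with both drugs and 35.3 CPM in DMSO. CFLAR, which blocks caspase-8, fell by 0.32 in log2 units in the authors' deposited table. GADD45A, a stress and growth arrest gene, stood at 69.2 CPM with both drugs and 9.50 CPM in DMSO and SESN2, a brake on mTORC1, at 101 CPM with both drugs and 19 CPM in DMSO, against SESN1 at -1.14 in the authors' deposited table.

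Secreted products of the hepatocyte fell, and the shares of its transcription factors that rose and fell were near those of all genes. Of 14 genes at 2 CPM or more in the list of albumin and secreted carriers, 11 fell and 0 rose. Over all 16 members the summed level was 15508 CPM with both drugs and 26839.8 CPM in DMSO. This sum includes the growth factor gene IGF2, which is no carrier and alone gave 3069 CPM with both drugs and 9844 CPM in DMSO. TTR, transthyretin, stood at 28.4 CPM with both drugs and 105 CPM in DMSO, AFP, alpha-fetoprotein, at 87.9 CPM with both drugs and 304 CPM in DMSO and GC, the vitamin D carrier, at 237 CPM with both drugs and 479 CPM in DMSO. ALB, albumin, fell to 7103 CPM with both drugs, against 9618 CPM in DMSO (edgeR FDR = 0.0104 in the authors' deposited table), a call that was lost at an FDR of 0.01. Among apolipoproteins and assembly factors 8 of 13 fell and 2 rose, and the summed level over all 20 members was 4009 CPM with both drugs and 8956 CPM in DMSO. APOB (NM_000384), the backbone of VLDL, stood at 1180.1 CPM with both drugs and 4073 CPM in DMSO, APOA2 of HDL at 755 CPM with both drugs and 2466 CPM in DMSO and APOH, which binds phospholipids, at 70.4 CPM with both drugs and 259.8 CPM in DMSO. APOC1 rose by 0.32 (edgeR FDR = 0.0315) in the authors' deposited table, and this call was also lost at an FDR of 0.01. Of the 10 hepatoma markers, which overlap these lists, 9 fell and 0 rose, and their sum was 11242 CPM with both drugs and 18098.5 CPM in DMSO. In a bulk library, fewer cells that make a transcript and less of it per cell cannot be told apart.

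Coagulation and complement genes fell in 14 of 26 cases and rose in 4. SERPIND1, heparin cofactor II, stood at 16.3 CPM with both drugs and 74.3 CPM in DMSO, CFI, complement factor I, at 11.9 CPM with both drugs and 49.5 CPM in DMSO and PROZ at -1.56 in the authors' deposited table. SERPINC1, antithrombin, went the other way at 4.08 CPM with both drugs and 0.590 CPM in DMSO, as did MASP1 of the lectin pathway at 64.1 CPM with both drugs and 20.6 CPM in DMSO. Of 19 liver transcription factors 6 rose (31.6%) and 7 fell (36.8%), near the shares of all genes. HNF4A, a central one, was at 0.05 (edgeR FDR = 0.767) in the authors' deposited table. NR0B2 (SHP), the repressor of bile acid synthesis, stood at 11 CPM with both drugs and 31.1 CPM in DMSO, PROX1 at 30.2 CPM with both drugs and 70.5 CPM in DMSO and HNF4G at 26.9 CPM with both drugs and 12.5 CPM in DMSO. ATF5 stood at 0.90 in the authors' deposited table.

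Liver enzymes for nitrogen, bile acids and drugs moved one by one. CPS1, the entry enzyme of the urea cycle, stood at 1.20 CPM with both drugs and 6.80 CPM in DMSO, while NAGS, which makes its activator, stood at 3.83 CPM with both drugs and 1.09 CPM in DMSO and ASS1, a later step, at 181 CPM with both drugs and 42.7 CPM in DMSO. HAL, which breaks down histidine, stood at 5.03 CPM with both drugs and 22.4 CPM in DMSO. The urea and amino acid list had 5 of 15 higher (33.3%) and 6 lower (40%), near the shares of all genes. Of 8 bile acid genes 2 rose and 6 fell, among them CYP7B1 at -1.12 and the conjugating enzyme BAAT at 1.16 in the authors' deposited table. Only 6 of 21 genes in the xenobiotic P450 list, which also holds genes that are not P450s, reached 2 CPM. The 2 that rose were AHR, the dioxin receptor, at 0.74 and the reductase gene POR at 0.36 in the authors' deposited table. Neither is a P450 gene. The 2 that fell were the P450 genes CYP2J2, at -0.47, and CYP3A7, the fetal enzyme, at -1.28 in the authors' deposited table. Of 9 drug efflux transporters 4 rose (44.4%) and 4 fell (44.4%), near the shares of all genes. ABCG2, the breast cancer resistance protein, stood at 9.49 CPM with both drugs and 2.47 CPM in DMSO and ABCC4 at 27.3 CPM with both drugs and 13.6 CPM in DMSO, against ABCC6 at -1.07 and ABCB1, P-glycoprotein, at -0.39 in the authors' deposited table. ABCB1 was at -1.03 with sorafenib alone and 0.22 with GW3965 alone in the authors' deposited tables.

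Energy metabolism genes fell in several lists by moderate amounts. Of 15 core glycolysis genes 12 fell and 1 rose, with a median of -0.48. PKM2, pyruvate kinase, stood at 259 CPM with both drugs and 571 CPM in DMSO and TPI1 at 63.9 CPM with both drugs and 153 CPM in DMSO, while ENO2, the neuronal enolase, stood at 3.79 CPM with both drugs and 1.73 CPM in DMSO. In glucose transport and gluconeogenesis 6 of 13 rose (46.2%) and 5 fell (38.5%), near the shares of all genes. PCK2, the mitochondrial PEP carboxykinase and a known ATF4 target, stood at 176 CPM with both drugs and 21.5 CPM in DMSO. PFKFB3 was at -0.90 in the authors' deposited table. Of 46 nuclear genes of oxidative phosphorylation 30 fell and 3 rose, with a median of -0.30. NDUFA2 of complex I, COX7B and COX6B1 of complex IV and SDHC of complex II stood at -1.30, -1.29, -1.20 and -1.08 in the authors' deposited table, while SDHB was at 0.28. Of 13 hypoxia-inducible genes 7 rose and 2 fell, with NDRG1 at 1.34 and P4HA2 at 1.30 against EGLN3 at -1.48 in the authors' deposited table.

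Protein turnover and synthesis genes were compared next. Of 31 proteasome genes 21 fell and 0 rose, with a median of -0.33, PSMD1 of the regulatory particle being lowest at 60.9 CPM with both drugs and 149.7 CPM in DMSO. Of 72 cytosolic ribosomal protein genes 38 rose and 3 fell, with a median of 0.21. RPL3 had 0.56 and RPL13A 0.52, while RPS27 and RPS26, both counted at a few CPM, had 1.43 and -1.66 in the authors' deposited table; many of these genes have processed pseudogene copies that can share reads. Of 24 ribosome biogenesis genes 8 rose (33.3%) and 7 fell (29.2%), near the shares of all genes. The nucleolar protein NCL was at -0.76 and RRP12 at 0.67 in the authors' deposited table. Lysosome and autophagy genes rose in 15 of 32 cases (46.9%) and fell in 12 (37.5%), not far from the shares of all genes, with a median of 0.05. MAP1LC3B, the autophagosome marker LC3B, stood at 108 CPM with both drugs and 39 CPM in DMSO and its relative GABARAPL1 at 16.7 CPM with both drugs and 6.96 CPM in DMSO, against the lysosomal enzyme CTSA at 50.4 CPM with both drugs and 148 CPM in DMSO and ATG2A at 25 CPM with both drugs and 56.2 CPM in DMSO.

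Host genes of small nucleolar RNAs rose in 10 of 11 cases, with none lower and a median of 1.82. Their spliced transcripts are known to be degraded once they are translated. GAS5 stood at 136 CPM with both drugs and 33.6 CPM in DMSO, ZNFX1-AS1 (ZFAS1) at 127 CPM with both drugs and 24.4 CPM in DMSO, SNHG12 at 12.2 CPM with both drugs and 1.30 CPM in DMSO and EPB41L4A-AS1 at 23.9 CPM with both drugs and 3.91 CPM in DMSO. Strand use in the authors' counting is not given, so reads of the antisense genes and their partners cannot be told apart.

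Clock genes rose in 12 of 17 cases with none lower and a median of 0.92, beside 0.36 with sorafenib alone and 0.10 with GW3965 alone. The repressors were among them, NFIL3 at 98.1 CPM with both drugs and 27 CPM in DMSO, BHLHE41 at 18.6 CPM with both drugs and 4.15 CPM in DMSO, NR1D1 (REV-ERB alpha) at 20.4 CPM with both drugs and 6.37 CPM in DMSO and PER2 at 14.9 CPM with both drugs and 5.22 CPM in DMSO. NR1D1 was at 0.36, not called, with sorafenib alone, and PER2 and HLF were at -0.49 and -0.63 in Huh7 with both drugs in the authors' deposited tables, against 1.51 and 1.41 in Hep3B. Of 8 keratins 4 rose and 3 fell. KRT80, an epithelial keratin, stood at 21.5 CPM with both drugs and 1.51 CPM in DMSO, while KRT8, the main hepatocyte keratin, fell to 452 CPM with both drugs, against 715 CPM in DMSO. Of 23 collagens, laminins and integrins 3 rose and 12 fell, with LAMA5 at 65.6 CPM with both drugs and 196 CPM in DMSO, ITGAV at 106 CPM with both drugs and 235 CPM in DMSO and THBS1 at 119 CPM with both drugs and 235 CPM in DMSO. Among 15 axon guidance genes 5 rose and 7 fell, with NRP2, a receptor for VEGF and semaphorins, at 32.1 CPM with both drugs and 4.23 CPM in DMSO and PLXNB1 at 27.6 CPM with both drugs and 71.3 CPM in DMSO.

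Transcripts of the same gene almost always had nearly the same fold change. Of 8585 other transcripts beside a representative at 2 CPM or more, 93.2% lay within 0.1 (log2) of it, and how the authors shared reads among transcripts is not stated. Of 4512 genes with several transcripts at 2 CPM or more, 11 had transcripts called in opposite directions in the authors' deposited table. TOR1AIP2, a nuclear envelope gene, had the widest gap, with NM_145034 at 0.45 and NM_022347 at -0.85 in the authors' deposited table. ALG13, of protein glycosylation, had NM_001099922 at 0.29 and NR_033125 at -0.77, and THAP3 had NM_001195752 at 0.73 and NM_138350 at -0.26 in the authors' deposited table. HNMT, the histamine methyltransferase, had 0.50 and -0.39, ZNF655 0.41 and -0.48, and PCDH7, a protocadherin, 0.38 and -0.45 for their extreme transcripts in the authors' deposited table.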

How the data were processed

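Poly-A RNA libraries of Hep3B and Huh7 were grouped from their labels by line and treatment. Per the submitters' processing notes, edgeR was used with the builds hg19 and GRCh37, and no versions are given. Not given in the sources used here: aligner, counting, normalization, kind of edgeR test and library depths. The authors deposited, per the file headers, each transcript's mean as log2 CPM, its log2 fold change against DMSO, a p-value and its FDR, and marked 1 transcript per gene as representative. The authors' tests were not rerun, and the FDR of the authors' deposited table was recovered by Benjamini-Hochberg adjustment of its p-values over all 32321 transcripts. For 6 genes the p-value was listed as 0.

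Group levels were computed with the mean taken as the log2 of the mean CPM. The implied DMSO level then differed between the Hep3B tables with a standard deviation (log2) of 0.0153 for GW3965 and 0.00981 for sorafenib, against 0.742 and 0.445 with the fold read the other way. A constant offset of -0.08 for GW3965 and 0.00 for sorafenib remained in the implied DMSO levels. Values set side by side in the text are fold changes, each taken within 1 comparison, and not these levels. On simulated data the computation returned the group levels that were put in. That checks the arithmetic alone and not how the authors' mean was formed.

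The design took only the authors' FDR under 0.05 as a call. Named genes were the 15 highest and 15 lowest fold changes at 2 CPM or more, up to 5 called members of a list with the largest changes and up to 2 against its majority, the 8 highest and lowest at 500 CPM or more, the 6 widest transcript gaps and a set named in every case. Other genes are marked as chosen after their values were seen, or are list members given to show those not called. Some genes that the rule names are not reported here. The members and the 66 lists were chosen with earlier results of these data known. Of 1266 list symbols 1212 matched directly, 45 through older symbols in the RefSeq gene table and 9 not at all, and single-list counts leave these out. Promoter windows came from RefSeq (GRCh38.p14) and were matched by symbol, and no coordinates of the authors' build were used. Python 3.11.15, pandas 2.3.3, numpy 2.4.6, scipy 1.17.1 and matplotlib 3.10.9 were used. Alternatives were an FDR of 0.01, adjustment over representatives, other minimum levels, another representative transcript and centring on the median.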

Additional observations from a re-analysis of the deposited data

How the results depend on the processing

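No paired analysis was possible because the deposited tables hold no values of single libraries, and for the same reason no replicate could be left out and no other normalization tried. The counts of genes called and of 2-fold changes stayed within 1.5 times of the 5218 higher and 4744 lower calls, and of the 1601 and 1073 changes of 2-fold or more over all 20090 genes, except where low genes were removed: 2-fold increases numbered 929 at 2 CPM or more, with or without adjustment over those genes alone, and 715 at 5 CPM or more, where 2-fold decreases numbered 622. Genes with transcripts called in opposite directions numbered 4 at an FDR of 0.01, against 11 at 0.05. Of the 368 named genes, 361 kept their call at an FDR of 0.01, and ALB, APOC1, CENPA, COL12A1, FASN, ITGA3 and NDUFB5 lost it. FASN also lost it under adjustment over representatives alone. Of 132 list counts, 5 moved by more than 1.5 times at an FDR of 0.01 and 12 without the 2 CPM minimum, and 0 under the other alternatives. No named gene changed direction under any alternative run, centring included. Fold changes of genes near the floor of 0.197 CPM depend on the authors' unstated handling of low counts.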

Other observations

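Gene families outside the lists were read after the data had been seen, as values only. Of 426 zinc finger genes named ZNF at 2 CPM or more, 222 rose and 87 fell, with a median log2 fold change of 0.27 beside 0.01 for all genes at that level. ZNF524 stood at 13.3 CPM with both drugs and 3.13 CPM in DMSO and ZNF501 at 10.4 CPM with both drugs and 2.54 CPM in DMSO, against ZNF385A at 1.34 CPM with both drugs and 4.47 CPM in DMSO. The medians of the family were 0.01 with sorafenib alone, 0.02 with GW3965 alone and 0.23 in Huh7 with both drugs. All 22 protocadherin gamma genes at that level fell, with a median of -0.62, but they share their last exons and are in large part 1 measurement.

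Tubulins fell in 11 of 19 cases and rose in 4, the summed level over all 27 measured being 1819 CPM with both drugs and 3687 CPM in DMSO. TUBA1B, an alpha-tubulin of microtubules, stood at 199 CPM with both drugs and 587 CPM in DMSO, against TUBB2B at 29.8 CPM with both drugs and 12.5 CPM in DMSO. Of 19 subunits of the vacuolar proton pump and accessory genes, which acidify lysosomes, 13 fell and 3 rose, with ATP6V0C at 71.1 CPM with both drugs and 144 CPM in DMSO and ATP6V0A2 at 64 CPM with both drugs and 35.8 CPM in DMSO. The median was -0.35, beside 0.05 in Huh7 with both drugs. Tetraspanins fell in 8 of 14 cases and rose in 1, with TSPAN8 at -1.82 in the authors' deposited table.

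Of 23 genes named SEC, most of which act in protein import into the ER, in signal peptide removal and in vesicle traffic out of it, 15 rose and 3 fell. SEC24A, a COPII coat subunit, stood at 80.6 CPM with both drugs and 42 CPM in DMSO, and the median of the genes named SEC was 0.32 beside -0.01 with sorafenib alone and 0.03 with GW3965 alone. Of 13 syntaxins, the fusion proteins of vesicles, 9 rose and 1 fell, with STX5 of the Golgi at 94.3 CPM with both drugs and 44.2 CPM in DMSO. KLF factors rose in 8 of 13 cases and fell in 3, with KLF11 at 12.1 CPM with both drugs and 1.70 CPM in DMSO and KLF2 at 2.73 CPM with both drugs and 6.39 CPM in DMSO. Of 14 noncoding genes named LINC 8 rose and 1 fell, LINC00261 being the one that fell, at 64.7 CPM with both drugs and 119 CPM in DMSO.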
